A study of Bos taurus with 28 samples.

Results

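The metabolic nuclear receptors of the liver are transcription factors that sense lipids, bile acids and foreign compounds or keep the hepatocyte programme running. The set examined held 10 genes, HNF4A, NR1H4, NR1H3, NR1I2, NR1I3, PPARA, PPARD, RXRA, NR0B2 and NR5A2, and every probe set annotated to 1 of these symbols was taken. A probe set is a group of short probes for 1 transcript. Of the 10 genes, 7 had a probe set, which gave 11 of the 24016 probe sets other than controls. For NR1H4, NR1I2 and NR0B2 the annotation used here named no probe set, and no value is given. HNF4A, NR5A2, NR1I3 and RXRA had 1 probe set each, NR1H3 and PPARA had 2 each and PPARD had 3. The probe set of highest mean over all arrays stood for the gene, and the others, numbered by falling mean, were described beside it.

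The samples were liver biopsies of ovariectomized Holstein cows that were dry, so that neither ovarian steroids of their own nor lactation was present in any group, and RNA of each was hybridized to an Affymetrix Bovine GeneChip. There were 7 arrays in each of 4 groups. Cows of CO received no hormone, cows of E2T carried an estradiol implant in the ear, cows of P4T a progesterone device and cows of E2P4T both, each for 14 days. The progesterone device was vaginal by the protocol, whereas the labels of the P4T samples call that exposure intradermal. Cows moved between treatments in a Latin square, but the labels give neither the cow nor the period, so the tests treated the arrays as independent. Differences were judged against the spread between arrays, which holds differences of cow and period that could not be separated.

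Most of these receptors bind DNA as a pair with RXRA and are switched by a small ligand that enters the nucleus. NR1H3 (LXR alpha) responds to oxysterols, PPARA and PPARD to fatty acids, NR1H4 (FXR) to bile acids, and NR1I2 (PXR) and NR1I3 (CAR) to drugs and steroids. HNF4A binds as a pair with itself and maintains hepatocyte genes, NR5A2 (LRH-1) binds as a single molecule and takes part in bile acid synthesis, and NR0B2 (SHP), which lacks a DNA-binding domain, represses several of the others.

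Before the receptors were compared, the arrays were checked against markers of liver cells. On 27 arrays the mean log2 signal of 19 hepatocyte markers was between 14.77 and 15.72. On array 5 of E2P4T it was 9.77, and 17 of the 19 markers were below the lowest value of the other 27 arrays, albumin (ALB) at 12.06 against 16.57 to 18.16 and APOB at 5.00 against 14.93 to 16.11. On the same array 14 kidney markers had a mean of 11.34, against 5.08 to 7.77 on the others, and 13 of the 14 were above every other array. This array, E2P4T 5, thus went against its liver label. Array 4 of P4T kept its hepatocyte markers (15.01) but had a median correlation of 0.724 with the other arrays, against 0.826 to 0.922 on the 26 arrays other than these 2. Differences were therefore computed over all 28 arrays and over the 26 arrays without P4T 4 and E2P4T 5, and unless stated they are over 28 arrays. The hepatocyte marker mean also differed between groups on those 26 arrays, with a median of 15.34 in CO against 15.03 (E2T), 15.01 (P4T) and 15.05 (E2P4T), and its part in the results below was not tested.

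Receptor signals on E2P4T 5 lay outside the range of the other 27 arrays for 5 of the 11 probe sets. The share of all probe sets outside that range on E2P4T 5 was not counted, so the 5 have no background. RXRA was 11.15 there, against 12.61 to 13.58, and HNF4A was 9.42, against 9.70 to 11.74. PPARD was 10.25 there, against 7.86 to 9.93. The second probe sets of NR1H3 and PPARA were also above the other arrays, NR1H3 at 9.75 against a highest value of 9.20 and PPARA at 8.57 against 7.62. The array of lowest hepatocyte marker mean had the lowest RXRA and HNF4A and the highest value of the first PPARD probe set. Both other PPARD probe sets were inside the range there, at 8.12 against a highest value of 8.15 and at 5.38 against 5.91. A link of these values to the marker mean was not tested. E2P4T 5 stood apart beyond the receptors, with a median correlation of 0.556 with the other arrays. Its median log2 signal of all probe sets was above that of every other array, the next being P4T 4 at 8.78. The part of this upward shift in the receptor signals above the range was not tested.

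**Figure D1:**
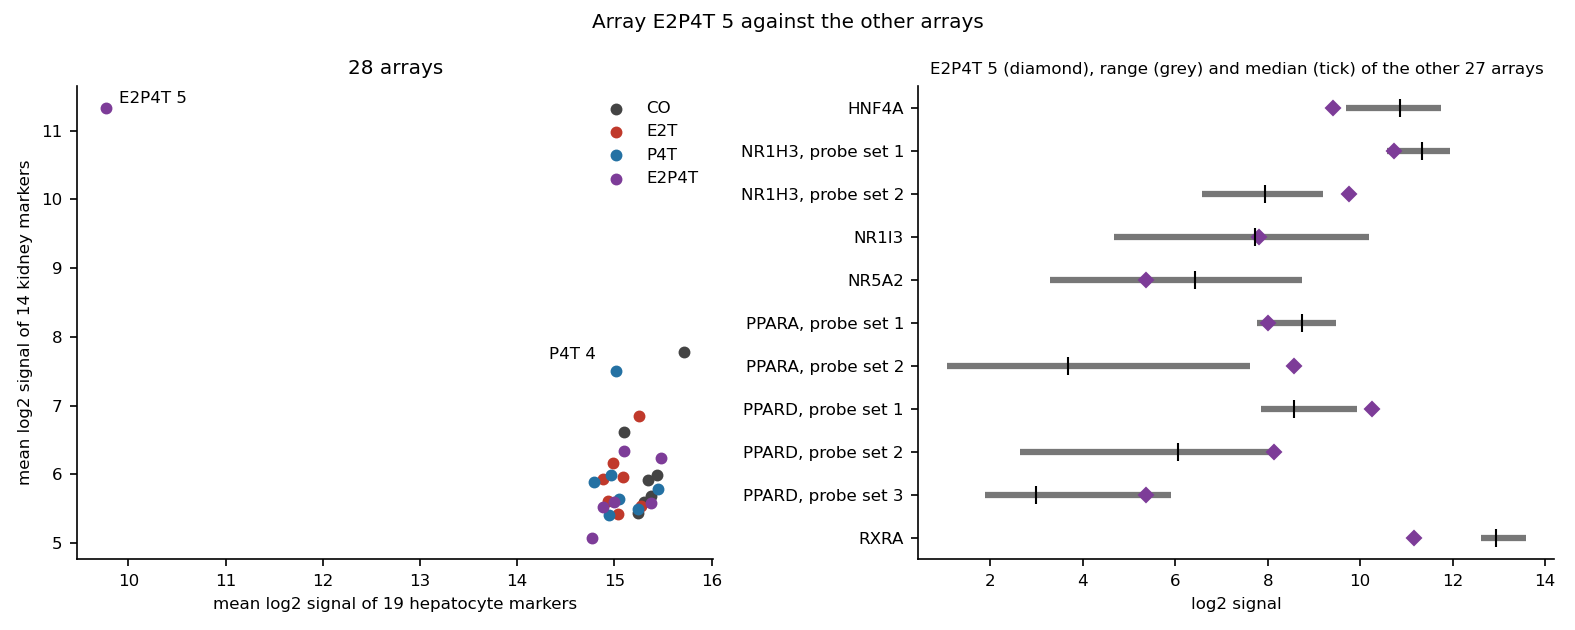
Left, the mean log2 signal of 19 hepatocyte markers (horizontal axis) and 14 kidney markers (vertical axis) on each of the 28 arrays, coloured by group. Right, log2 signal of the 11 receptor probe sets on E2P4T 5 (diamond) with the range (grey bar) and the median (tick) of the other 27 arrays. E2P4T 5 stands alone at 9.77 and 11.34, and RXRA and HNF4A lie below the grey range there while PPARD, probe set 1, lies above it.

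Differences from CO were tested with limma on log2 signals over the probe sets whose highest signal was at least 350, which 18775 probe sets reached. Of the 11 receptor probe sets, 9 reached it. For NR5A2 that was on P4T 4 alone and for the second PPARA probe set on E2P4T 5 alone, so these probe sets passed through an array that stands apart. No receptor probe set had an adjusted p under 0.05 in the F test over the 3 treatments, in any treatment against CO, in the main effects or in the interaction of E2 and P4, and no probe set of the array did so in the same fits (0% of 18775). At an unadjusted p under 0.05 there was 0 of 9 receptor probe sets in the F test (background 2.14%), 0 in E2T (5.44%), 0 in P4T (2.78%) and 0 in E2P4T (4.91%). There was 1 of 9 in the main effect of E2 (4.02%), which was NR5A2, 0 in the main effect of P4 (1.67%) and 0 in the interaction (2.99%). As the tissue was a whole biopsy, fewer cells of a type and less RNA per cell cannot be told apart.

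**Figure D2:**
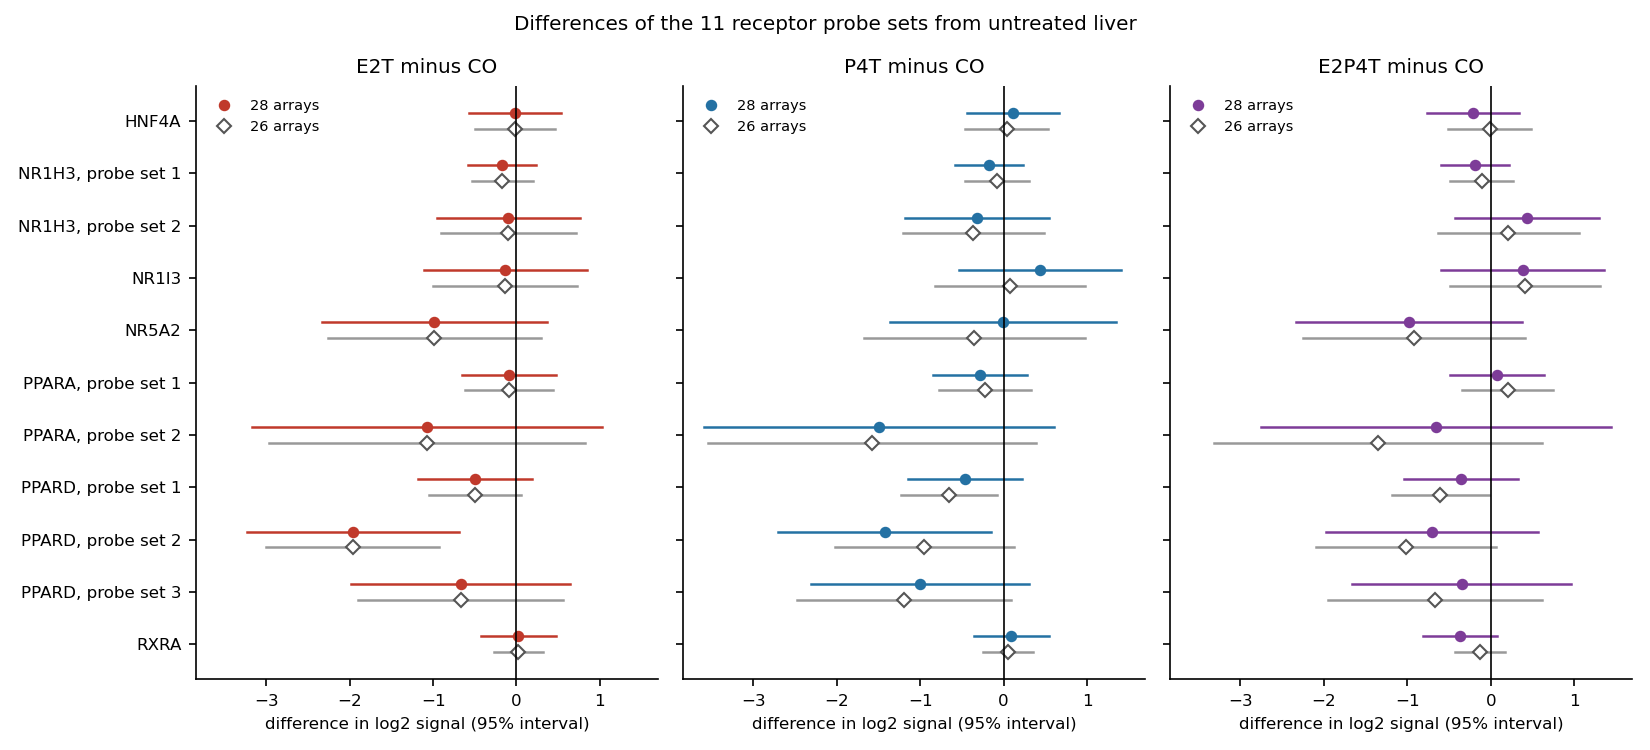
Difference in log2 signal from CO (horizontal axis) of each of the 11 receptor probe sets (vertical axis) in E2T, P4T and E2P4T, with its 95% interval from limma, over 28 arrays (filled circles) and over the 26 arrays without P4T 4 and E2P4T 5 (open diamonds). PPARD, probe set 2, in E2T, at -1.96, has an interval that stays below 0 over both sets of arrays.

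HNF4A, the receptor that maintains the expression of apolipoproteins, clotting factors and other hepatocyte genes, had a log2 signal of 9.70 to 11.74 in CO (median 10.86), 9.98 to 11.38 in E2T (median 10.81), 10.70 to 11.37 in P4T (median 10.85) and 9.42 to 11.14 in E2P4T (median 10.64). The 4 groups overlapped almost completely, and the lowest array was E2P4T 5. Its mean was 10.83 ± 0.71 (SD, n = 7) in CO. Against CO, E2T differed by -0.01 (95% interval -0.56 to 0.54), P4T by 0.11 (-0.44 to 0.66) and E2P4T by -0.21 (-0.76 to 0.34), with adjusted p of 0.995, 1.000 and 0.961 in limma. Without P4T 4 and E2P4T 5 the E2P4T difference was -0.01 (-0.51 to 0.49), so that the lower mean rested on E2P4T 5. The spread of HNF4A was itself uneven between groups, with an SD of 0.71 in CO and 0.15 in the 6 arrays of P4T other than P4T 4. The equality of these spreads was not tested.

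RXRA, the partner with which NR1H3, PPARA, PPARD and NR1I3 bind DNA, had a signal between 12.61 and 13.58 in CO (median 12.90). It was 12.88 to 13.51 in E2T (median 12.92), 12.85 to 13.33 in P4T (median 13.09) and 11.15 to 13.11 in E2P4T (median 12.77). Apart from E2P4T 5, all arrays lay within the range of CO. Relative to CO it differed by 0.02 in E2T (95% interval -0.42 to 0.47), by 0.09 in P4T (-0.36 to 0.54) and by -0.37 in E2P4T (-0.81 to 0.08). Over 26 arrays the residual spread was smaller and the E2P4T difference was -0.12 (-0.42 to 0.18, adjusted p = 0.777 in limma). The interval for E2T was then -0.26 to 0.31 and that for P4T -0.25 to 0.35.

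NR1H3, which switches on cholesterol efflux and fatty acid synthesis genes, had 10.57 to 11.93 in CO (median 11.38), 10.88 to 11.58 in E2T (median 11.16), 10.58 to 11.49 in P4T (median 11.39) and 10.73 to 11.58 in E2P4T (median 11.17) at its probe set of highest mean. The treated groups lay inside the range of CO, whose highest arrays, CO 6 and CO 7, exceeded every treated array. The differences were of like size, E2T at -0.17, P4T at -0.18 and E2P4T at -0.19, each with a standard error of 0.20 (adjusted p = 0.906, 1.000 and 0.950 in limma). They became -0.08 in P4T and -0.11 in E2P4T over 26 arrays. The other NR1H3 probe set gave -0.10, -0.32 and 0.43, so that its sign in E2P4T was opposite, and over 26 arrays its E2P4T difference was 0.21. Deviations from the group means correlated at r = 0.24 between them over the 26 arrays, which share library preparation and scaling.

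PPARA, which governs fatty acid oxidation in fasting liver, had 7.96 to 9.12 in CO (median 8.87), 7.77 to 9.25 in E2T (median 8.52), 8.04 to 8.99 in P4T (median 8.30) and 8.0 to 9.48 in E2P4T (median 8.74). These groups overlapped throughout. E2T differed from CO by -0.09 (95% interval -0.65 to 0.47), P4T by -0.28 (-0.85 to 0.28) and E2P4T by 0.07 (-0.49 to 0.64), with adjusted p of 0.969, 1.000 and 0.991 in limma. The second PPARA probe set ranged from 1.07 to 8.57, with differences of -1.07, -1.49 and -0.66 that were no larger than 1.5 times their standard error of 1.03, and over 26 arrays -1.57 in P4T and -1.35 in E2P4T. Its deviations correlated with those of the other PPARA probe set at r = -0.35, and a mean over both would have given -0.58 in E2T and -0.89 in P4T.

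**Figure D3:**
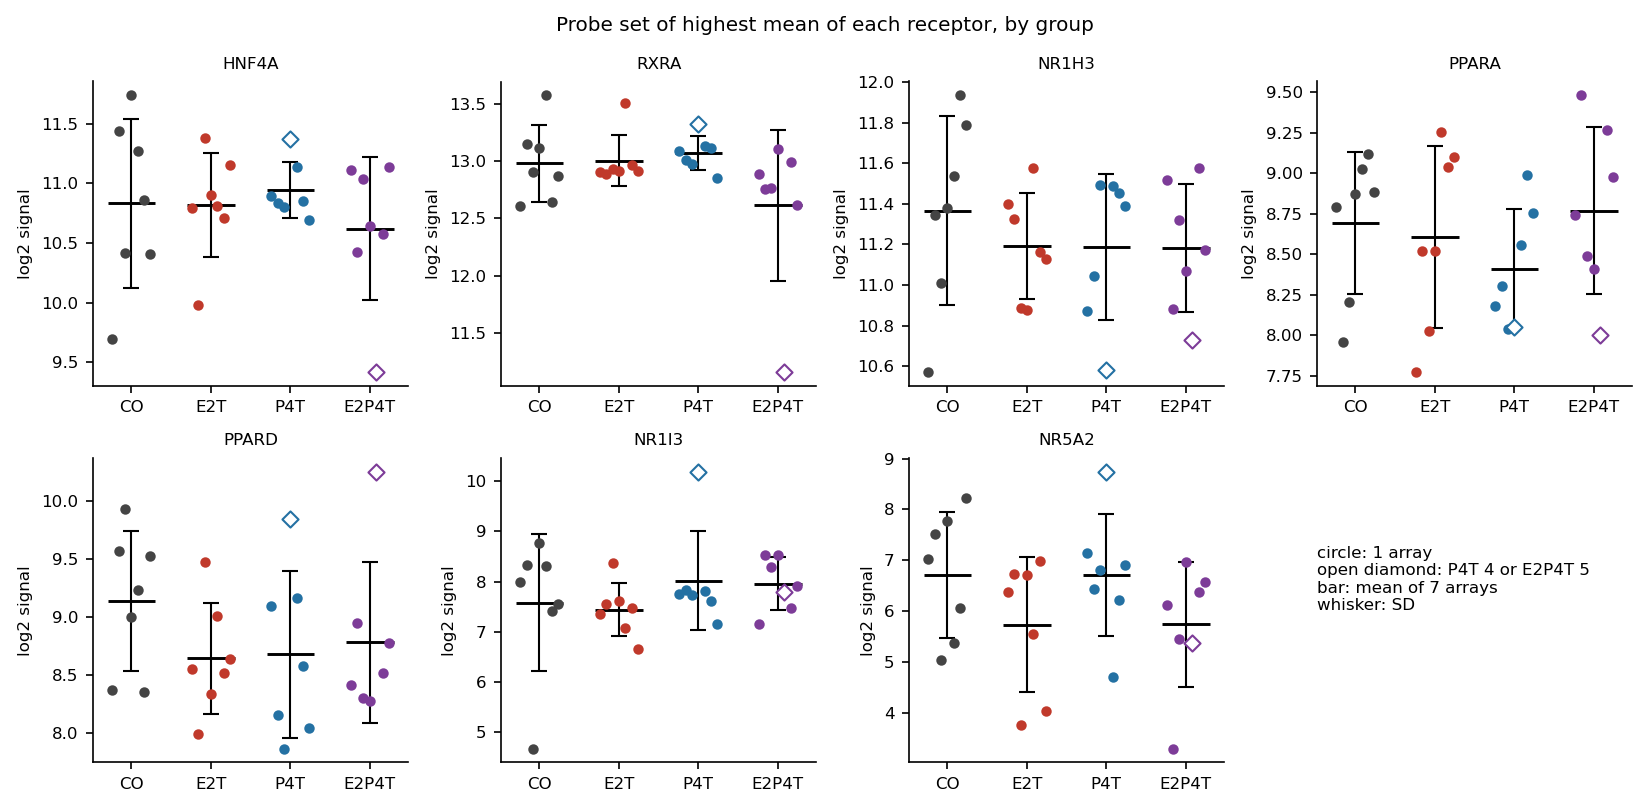
Log2 signal (vertical axis) of the probe set of highest mean of each of the 7 receptors on every array of CO, E2T, P4T and E2P4T. Circles are arrays, open diamonds are P4T 4 and E2P4T 5, bars are means of 7 arrays and whiskers are SD. The groups overlap for every receptor, and the open diamonds are the extreme arrays of RXRA (11.15 in E2P4T) and NR1I3 (10.19 in P4T).

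PPARD, a fatty acid receptor found in most tissues, had a lower group mean than CO in all treatments at each of its probe sets. Its probe set of highest mean had 8.35 to 9.93 in CO (median 9.23), 7.99 to 9.47 in E2T (median 8.55), 7.86 to 9.84 in P4T (median 8.57) and 8.27 to 10.25 in E2P4T (median 8.51). The medians of the treated groups lay close together below that of CO, while the ranges overlapped, and the highest arrays of P4T and E2P4T were P4T 4 and E2P4T 5. E2T was at -0.50, P4T at -0.46 and E2P4T at -0.36 relative to CO (standard error 0.33 each), with adjusted p of 0.874, 1.000 and 0.950 in limma.

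Without these 2 arrays PPARD gave -0.50 in E2T (95% interval -1.05 to 0.06), -0.66 in P4T (-1.23 to -0.08) and -0.60 in E2P4T (-1.18 to -0.03). Unadjusted p-values in limma were 0.0771, 0.0268 and 0.0409, and adjusted p-values 0.521, 0.595 and 0.515. In P4T and in E2P4T, 1 of the 9 receptor probe sets thus had an unadjusted p under 0.05 over 26 arrays, and the background was 8.2% and 9.5% of all probe sets. The 3 differences share the CO arrays, so their like sign is not independent.

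The 2 dim PPARD probe sets did not reach a signal of 350 on any array and were fitted with all 24016 probe sets. The second PPARD probe set had 6.30 to 8.15 in CO (median 6.83), 3.00 to 6.22 in E2T (median 5.41), 2.63 to 6.84 in P4T (median 5.44) and 5.20 to 8.12 in E2P4T (median 5.94). Every E2T array was below every CO array, which held for 0.121% of all probe sets in either direction, whereas P4T and E2P4T overlapped CO. The gap was 6.22 on E2T 7 against 6.30 on CO 6, arrays whose median log2 signals were 7.52 and 7.78. Relative to these medians E2T 7 was above CO 6, so the separation did not hold with centring on the array median. The highest value of CO was on CO 7, and that of E2P4T on E2P4T 5.

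For this probe set of PPARD E2T differed from CO by -1.96 (95% interval -3.24 to -0.69), P4T by -1.43 (-2.70 to -0.15) and E2P4T by -0.70 (-1.97 to 0.57). Unadjusted p-values in limma were 0.00357, 0.0292 and 0.270 (background 6.05%, 3.34% and 4.97% under 0.05), and adjusted p-values 0.810, 1.000 and 0.950. Its F test p over the 3 treatments was 0.0203 (background 2.76%), with an adjusted p of 1.000 in limma. The interaction of E2 and P4 was 2.69 ± 0.88 (SE), with an unadjusted p of 0.00463 (background 3.63%) and an adjusted p of 0.999 in limma. The values behind it were signals of 78.8 to 283.8 in CO and 8.0 to 74.7 in E2T, well under the minimum used elsewhere.

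Over 26 arrays the same PPARD probe set gave -1.96 in E2T (adjusted p = 0.338 in limma), -0.95 in P4T (unadjusted p = 0.0818 in limma) and -1.02 in E2P4T, so that the unadjusted p of P4T was no longer under 0.05. P4T 4, among the arrays left out, had the lowest value of this probe set, 2.63. The interaction was 1.89 ± 0.75 (SE). The median log2 signal of all probe sets was 7.67, 7.96, 8.33, 7.83, 7.57, 7.78 and 8.30 on the CO arrays in order of number. On the E2T arrays it was 7.54, 7.55, 8.22, 7.62, 7.55, 7.54 and 7.52. With each array centred on its median the E2T difference was -1.69. With no filter 62.9% of all probe sets had a lower mean in E2T than in CO, against 48.6% of the brighter ones (above the median of mean signal). Lower means in E2T were thus more common among dim probe sets, and the part of this in PPARD was not tested. The third PPARD probe set had 1.89 to 5.91 in CO (median 3.97), 2.17 to 4.37 in E2T (median 2.85), 2.26 to 3.97 in P4T (median 2.46) and 2.32 to 5.38 in E2P4T (median 3.42). Its differences were -0.67, -1.0 and -0.35 with a standard error of 0.64, and all groups overlapped. Over 26 arrays the same probe set gave -1.19 in P4T and -0.67 in E2P4T.

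Lower means than CO in all 3 treatments were thus found at all 3 PPARD probe sets, and also at NR5A2, NR1H3 and the second PPARA probe set. That was 6 of 11 receptor probe sets, against 37.5% of all 24016, and 4 of the 9 that reached the minimum signal, against 34.6% of 18775. The correlation of deviations from the group means over 26 arrays was r = 0.49 between the first and the third probe set of PPARD, and r = 0.23 between its first and second, as a description.

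**Figure D4:**
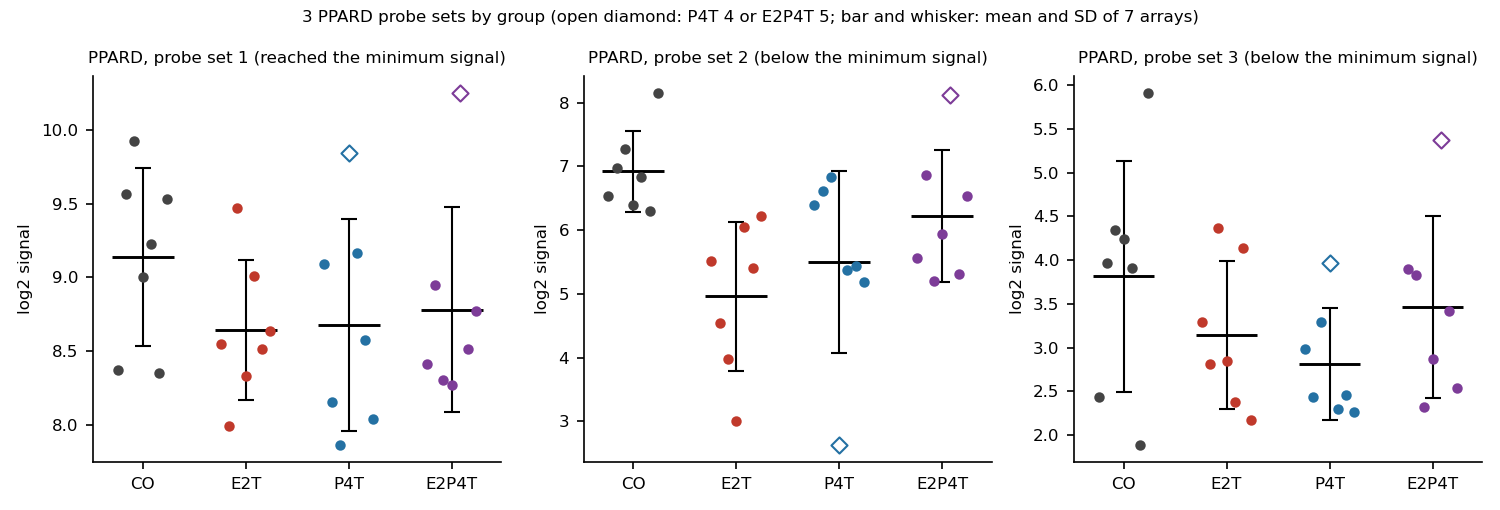
Log2 signal (vertical axis) of the 3 PPARD probe sets on every array of CO, E2T, P4T and E2P4T, with the mean (bar) and SD (whisker) of 7 arrays and P4T 4 and E2P4T 5 as open diamonds. For probe set 2 the highest E2T array, at 6.22, is below the lowest CO array, at 6.30, in signals not centred on the array median. The groups overlap at both other probe sets.

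NR1I3, which induces enzymes of drug and bilirubin clearance, had 4.67 to 8.77 in CO (median 8.0), 6.66 to 8.38 in E2T (median 7.47), 7.16 to 10.19 in P4T (median 7.75) and 7.16 to 8.54 in E2P4T (median 7.92). The lowest value, on CO 3, and the highest, on P4T 4, stood apart from the rest of their groups. With all arrays the difference in P4T was 0.44 (95% interval -0.54 to 1.41), and over 26 arrays it was 0.07 (-0.82 to 0.97). In E2T it was -0.13 and in E2P4T 0.38, with standard errors of 0.48, and leaving out CO 3 turned the E2P4T difference to -0.10.

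NR5A2, which shares bile acid synthesis genes with HNF4A among its targets, had 5.04 to 8.22 in CO (median 7.03), 3.77 to 6.99 in E2T (median 6.37), 4.71 to 8.74 in P4T (median 6.80) and 3.29 to 6.96 in E2P4T (median 6.12). No array with estradiol exceeded 6.99, while 4 arrays of CO and 2 of P4T did. The ranges nevertheless overlapped over most of their length. E2T was at -0.98, P4T at -0.01 and E2P4T at -0.98 relative to CO (standard error 0.66). Over 26 arrays P4T was at -0.35 and E2P4T at -0.92. The main effect of E2 was -0.98 (95% interval -1.93 to -0.02), with an unadjusted p of 0.0457 and an adjusted p of 0.957 in limma. Without P4T 4, whose NR5A2 signal of 8.74 was the highest, and E2P4T 5, the main effect was -0.78 (-1.72 to 0.16). NR5A2 reached the minimum signal through P4T 4 alone, an array without estradiol, but it was still tested when that array was left out. The count of 1 for this effect was then 0, as it was for 14 of the 28 arrays left out in turn. At signals of 9.8 to 428.0, NR5A2 was among the dim probe sets.

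The order of group means differed from receptor to receptor. Means were highest in CO for NR5A2, NR1H3 and PPARD, in P4T for HNF4A, RXRA and NR1I3, and in E2P4T for PPARA. Over 26 arrays the highest mean of NR1I3 was that of E2P4T (7.98, against 7.65 in P4T and 7.58 in CO), and the other 6 receptors had theirs in the same group as over 28. Exact two-sided permutation tests compared each treatment with CO over 28 arrays. For the 7 probe sets of highest mean, p lay between 0.118 and 0.988. The second PPARD probe set had a lower p for E2T (0.000583) and for P4T (0.0175), but not for E2P4T (0.158). These p-values were unadjusted, and the signals behind them were dim and not centred on the array median. For the remaining receptor probe sets p lay between 0.0979 and 0.847. Neighbouring treated groups were not tested against each other.

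Array to array, receptor signals varied together only loosely. Deviations from group means over the 26 arrays correlated at between -0.44 and 0.49 among the 11 probe sets, with RXRA and HNF4A at r = 0.39. All of these pairs share library, scaling and array. Among named probe sets of other genes with a mean signal above the median of those tested, those most like each receptor were looked up by Pearson r of the same deviations. Each search ran over 6170 or 6171 probe sets on 26 arrays, and the highest r of so many are high by selection. They are given as a description and were not tested. CO 3, where NR1I3 stood apart, was among these arrays. For NR1H3 they were both probe sets of the drug-metabolizing enzyme CYP2D14 (r = 0.88 each) and CLPTM1L (0.86), and for PPARD they were ATG2A (0.85), the sarcosine dehydrogenase SARDH (0.83) and PGAP6 (0.82). PPARA was most like SEC23IP (0.80), TPD52L1 (0.76) and DECR1 (0.76), a mitochondrial enzyme of unsaturated fatty acid oxidation. RXRA was most like the urea cycle enzyme ASS1 (0.83), VDAC3 (0.82) and PRKAR1A (0.82). HNF4A was most like RABGGTA (0.76), EFTUD2 (0.76) and GRTP1 (0.76), NR5A2 like OSTF1 (0.77), CD9 (0.77) and LSM5 (0.75), and NR1I3 like EIF4E2 (0.87), METTL13 (0.84) and BCL7C (0.83). Spearman's rho of these pairs ran from 0.44 for NR1I3 and BCL7C to 0.88 for NR1H3 and CLPTM1L, and it was 0.56 for HNF4A and EFTUD2, 0.61 for NR1I3 and EIF4E2 and 0.63 for RXRA and ASS1.

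Genes of the same pathways were read from 8 lists, each gene at its probe set of highest mean. No gene of any list had an adjusted p under 0.05 in limma in a treatment against CO, over 28 or 26 arrays. Other nuclear receptors, 12 of 21 tested, had 0 genes at an unadjusted p under 0.05 over 28 arrays, with RARA, a retinoic acid receptor, at -0.59, -0.23 and -0.54 in E2T, P4T and E2P4T and the glucocorticoid receptor NR3C1 at 0.19, 0.34 and 0.35. Over 26 arrays NR3C1 was at 0.44 in E2P4T (unadjusted p = 0.0285, adjusted p = 0.515 in limma). That was 1 of the 12 in E2P4T, where 9.5% of all probe sets had an unadjusted p under 0.05 over 26 arrays. Among 9 coregulators tested, TBL1XR1, part of the NCOR corepressor complex, was at 0.41, 0.28 and 0.37 (unadjusted p = 0.0307, 0.128 and 0.0497 in limma). It was the 1 coregulator with an unadjusted p under 0.05 in E2T and in E2P4T, where 5.44% and 4.91% of all probe sets had one. The coactivator PPARGC1A was at 0.09, 0.04 and 0.43. Of 6 liver transcription factors tested none had an unadjusted p under 0.05, and CREB3L3 was at 0.00, -0.01 and -0.52, NFIL3 at 0.17, -0.10 and -0.49. Over 26 arrays their E2P4T values were -0.24 and -0.16, and the E2P4T median of the 6 genes went from -0.50 to -0.20.

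Targets of NR1H3, 10 tested, held 1 gene lower in E2T at an unadjusted p under 0.05, 1 higher in P4T, and 1 higher and 1 lower in E2P4T, where 5.44%, 2.78% and 4.91% of all probe sets had such a p in either direction. SREBF1, the regulator of fatty acid synthesis, was at -0.60, -0.08 and -0.24 (unadjusted p of 0.0126 and adjusted p of 0.873 for E2T in limma). MYLIP, which marks the LDL receptor for breakdown, was at 0.29, 0.40 and 0.63 (adjusted p = 0.874, 1.000 and 0.933 in limma). The fatty acid synthase FASN was at -0.64, -0.11 and -0.65, and over 26 arrays at -0.83 in E2P4T, while the acetyl-CoA carboxylase ACACA was then at -0.73, -0.92 and -0.55. For E2T, P4T and E2P4T this list had medians of -0.06, -0.02 and -0.16, against -0.10, -0.03 and -0.02 over all 18775 probe sets.

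Among 20 tested PPAR targets, 0 had an unadjusted p under 0.05 in limma in E2T, 2 were lower at such a p in P4T and 1 in E2P4T. Of all probe sets 5.44%, 2.78% and 4.91% had such a p in either direction. ANGPTL4, an inhibitor of lipoprotein lipase, was at -0.16, -1.15 and -1.05 (unadjusted p = 0.745, 0.0258 and 0.0414 in limma), and over 26 arrays at -0.16, -0.59 and -0.75. The fatty acid hydroxylase CYP4A22 was at -0.45, -1.0 and -0.19. PDK4, which spares glucose by blocking pyruvate dehydrogenase, was at 0.39, 0.54 and 0.23. In E2T 16 of the 20 genes had a mean above CO, with a median of 0.13, while 59.8% of all probe sets, and 48.6% of those with a mean signal above the median, had a mean below CO. In P4T and E2P4T 9 of 20 were above CO over 28 arrays and 13 of 20 over 26 arrays.

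For the targets of NR1I2 and NR1I3, 14 tested, all 14 means of E2P4T were below CO over 28 arrays, with a median of -0.33, but 5 of 14 were over 26 arrays, with a median of 0.03. Among all probe sets 51.7% and 58.5% were lower in E2P4T over these arrays. At an unadjusted p under 0.05 in limma, 0 of the 14 were found in any treatment over 28 arrays and 2 in each over 26 arrays. Of all 18775 probe sets 1919, 1539 and 1783 had such a p in E2T, P4T and E2P4T over 26 arrays. Over 26 arrays UGT1A6, a conjugating enzyme, was at 0.45, 0.52 and 0.53 (unadjusted p = 0.0395, 0.0232 and 0.0209, adjusted p = 0.468, 0.595 and 0.512 in limma) and UGT2B10 at 0.62, 0.48 and 0.59. Over 28 arrays they were at 0.45, 0.25 and -0.09 and at 0.62, 0.26 and -0.61. CYP2B6 was at 0.15, 0.51 and -0.35 over 28 arrays and at 0.03 in E2P4T over 26.

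Targets of HNF4A, 17 tested, showed the same dependence, with 13 of 17 means of E2P4T below CO and a median of -0.58 over 28 arrays, and 8 of 17 and a median of 0.09 over 26 arrays. APOB, which holds secreted lipoprotein particles together, went from -1.43 to 0.09 in E2P4T and transthyretin, TTR, from -0.87 to -0.08. In E2T, which does not contain these arrays, APOB was at -0.02 and TTR at -0.03. Bile acid synthesis and transport, 14 tested, had 12 means of E2P4T below CO over 28 arrays and 4 over 26. CYP7A1, the rate-limiting enzyme of bile acid synthesis from cholesterol, was at 0.21, 0.21 and -0.39 over 28 arrays and at 0.21, 0.26 and 0.18 over 26. CYP8B1, ABCB11, ABCA1, CYP3A4 and CPT1A had no probe set among those tested.

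**Figure D5:**
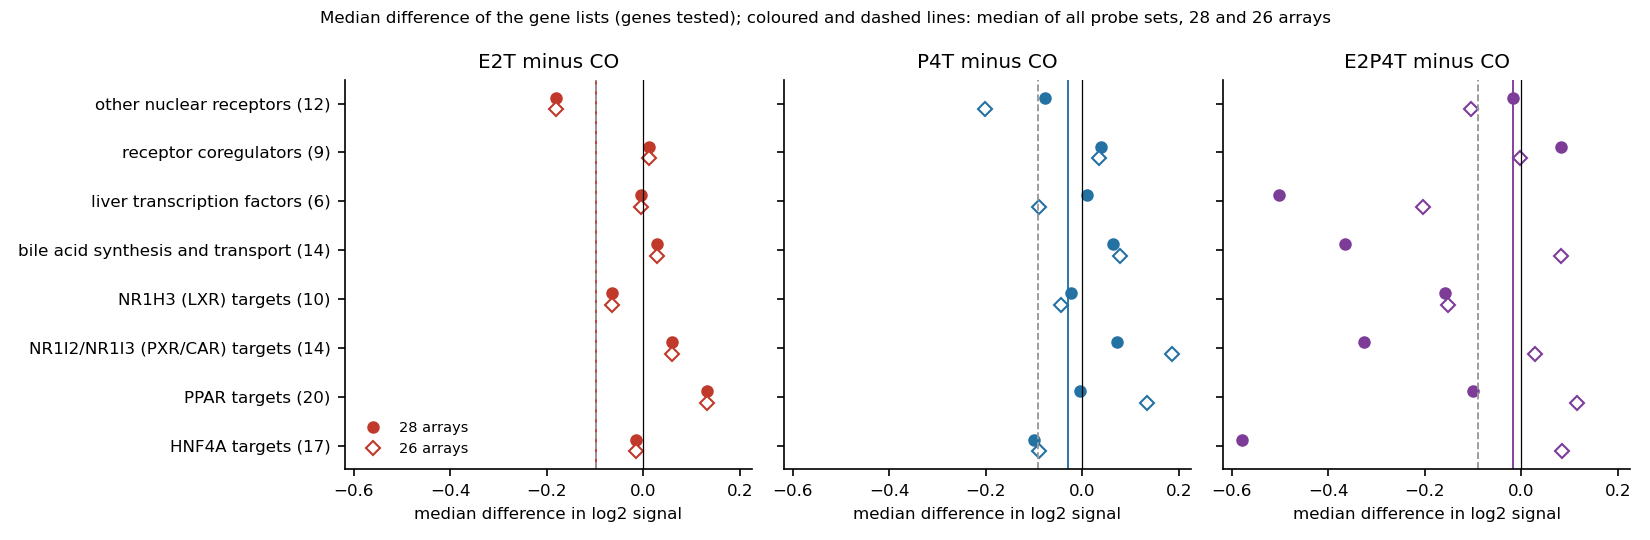
Median difference in log2 signal from CO (horizontal axis) of the 8 gene lists (vertical axis, genes tested in brackets) in E2T, P4T and E2P4T, over 28 arrays (filled circles) and over 26 arrays (open diamonds), with the median of all tested probe sets as a coloured and a dashed line. In E2P4T the medians of HNF4A targets (-0.58) and of NR1I2 and NR1I3 targets (-0.33) move to 0.09 and 0.03 without P4T 4 and E2P4T 5.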

How the data were processed

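Signal intensities were deposited by the authors on a linear scale, made with GCOS 1.4 and MAS 5.0. The number of arrays, 28, limits the precision. Log2 of the signals was used without further scaling. One linear model of the 4 groups was fitted per probe set (limma 3.58.1, R 4.3.3), with moderated variances that follow a trend in mean signal, with an F test over the 3 treatments against CO, each treatment against CO, the main effects and the interaction. P-values were adjusted by Benjamini and Hochberg over all probe sets tested, with a threshold of 0.05. The fit was tested on simulated data drawn independently for each array. These had no shared cows or periods, no array-wide shifts and no arrays that stand apart, so the fit was not tested under those conditions.

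Symbols came from the array's annotation, and 13292 of 24016 probe sets had 1 symbol. The rule for named genes took every receptor probe set, the 3 most alike probe sets of each receptor, and of each list the 4 lowest F test p-values and textbook targets. The members, lists, alternatives and the 2 arrays left out were chosen with earlier results of these data known. Cow and period, which enter the mixed model in the methods, could not be fitted, as the labels give neither. Exact permutation tests used all splits of 7 against 7 arrays. Alternatives were no filter, the brighter probe sets (above the median of mean signal), quantile normalization, centring on the array median, log2 of signal plus 50, a replicate block, array weights, no variance trend, a mean over probe sets and leaving out arrays.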

Additional observations from a re-analysis of the deposited data

Results flagged for a closer look

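Within groups of 7 arrays, a lowest or highest value that stood apart by Dixon's criterion (its gap to the nearest array against the group's range, at the 95% level) was looked for in 52 groups of values, the 11 receptor probe sets and the hepatocyte and kidney marker means in 4 groups each. It was found 12 times, and chance gives about 1 in 20 groups. On E2P4T 5 these were RXRA (11.15, nearest 12.62), HNF4A (9.42, nearest 10.42), the first PPARD probe set (10.25, nearest 8.95), the second PPARA probe set (8.57, nearest 5.34), the hepatocyte marker mean (9.77, nearest 14.77) and the kidney marker mean (11.34, nearest 6.34). On P4T 4 they were NR1I3 (10.19, nearest 7.83), the second PPARD probe set (2.63, nearest 5.19) and the kidney marker mean (7.50, nearest 5.99). The others were NR1I3 on CO 3 (4.67, nearest 7.41), RXRA on E2T 5 (13.51, nearest 12.97) and NR5A2 on E2P4T 2 (3.29, nearest 5.38). The mean log2 signal of control probe sets for transcripts added to the samples was 18.16 on E2P4T 5, 17.20 on P4T 4 and 16.16 on CO 3. These were the highest of all arrays, followed by 15.33 on E2T 3. On E2T 5 and E2P4T 2 it was 14.04 and 14.76. What set these arrays apart, and the part of the added controls in it, was not tested.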

How the results depend on the processing

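No receptor probe set had an adjusted p under 0.05 in any comparison under any alternative run, which were no filter, the brighter probe sets (above the median of mean signal), quantile normalization, median centring, log2 of signal plus 50, a replicate block, array weights, no variance trend, the 26 arrays and leaving out each of the 28 arrays. Counts at an unadjusted p under 0.05 in limma moved between 0 and 1. The 1 call of the main effect of E2, NR5A2, became 0 with quantile normalization, median centring, the brighter probe sets, array weights and 26 arrays, and leaving out each array in turn gave 0 to 1, with 0 for 14 of the 28 (CO 1, 2, 4 and 7, E2T 3, 5 and 7, P4T 1, 3, 4 and 7, E2P4T 2, 3 and 5). With no filter, the F test, E2T, P4T and the interaction had 1 each, all the second PPARD probe set. With array weights E2T, P4T, E2P4T and the main effect of P4 had 1 each, the first PPARD probe set. Under these weights 3174, 1832 and 2467 of all 18775 probe sets had such a p in E2T, P4T and E2P4T. The number for the main effect of P4 was not counted, so its 1 call has no background. With 26 arrays P4T and E2P4T had 1 each. For the second PPARD probe set the E2T difference lay between -2.17 and -1.01, at an unadjusted p under 0.05 in all 35 alternatives and with a lowest adjusted p of 0.211, and its F test p was 0.111 with quantile normalization and 0.0565 with median centring. Median centring raised the median of all probe sets by 0.27 in E2T, 0.12 in P4T and 0.06 in E2P4T, and quantile normalization by 0.12, 0.05 and 0.04. Under centring the E2T differences of HNF4A (0.26), RXRA (0.29), PPARA (0.18) and NR1H3 (0.10) were positive, so the small E2T differences have no settled sign. The replicate numbers were not taken to pair the arrays, since the labels give no shared cow or period and not every pair of same-numbered arrays correlated over 0.1 (14 of 42 did, in a range of -0.205 to 0.320, among them every pair of number 6). With the number as a replicate block, the count for the main effect of E2 was 1 and all other counts were 0, and 11 of the 28 arrays correlated best with an array of their own number, so a pairing of some numbers was not settled. Alternatives for the dim PPARD probe sets were chosen after seeing the data. Low signals and 7 arrays per group limit NR5A2, NR1I3 and the dim probe sets of PPARA and PPARD.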
